A study of Mus musculus with 97 samples.

Results

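Histone genes were followed in RNA sequencing of whole hearts and jejuna of C57BL/6 mice. Every gene of the deposited table whose symbol begins with H1f, H2ac, H2bc, H3c or H4c followed by a digit was taken, which gave 63 of 51368 genes. They comprise 11 linker histone genes (H1), 16 H2A genes, 14 H2B genes, 12 H3 genes and 10 H4 genes. Chromosome 13 carries 48 of them, chromosome 3 carries 10, and the other 5, H1f0 among them, lie elsewhere. A further 9 histone genes kept older Hist1h symbols in the table and fell outside this choice, as did variants such as H2az1. The 63 genes were picked out by name and not by a threshold on any value, although earlier results of these data were known when the family was chosen.

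The 97 libraries came from 4 cohorts of mice aged 11 weeks, bought from Jackson, with 1 heart or 1 jejunum per library. Experiments 1 to 3 sampled whole hearts and experiment 4 sampled flushed jejuna. Drugs were mixed into chow for 3 weeks, with celecoxib at 550 ppm and naproxen at 1323 ppm in females or 1610 ppm in males. Tryptophan was injected intraperitoneally each day of the last week at 50 mg/kg in phosphate-buffered saline, and all other groups of experiments 2, 3 and 4 received saline alone, whereas mice of experiment 1 had no injections. In experiment 1, naproxen was given to 5 females and 5 males, against 5 control females and 5 control males. In experiment 2, all females, the groups were naproxen (7 mice), naproxen+tryptophan (8 mice) and control (8 mice). In experiment 3, also females, the groups were tryptophan (8 mice) and control (8 mice). In experiment 4, also females, the groups were celecoxib (8 mice), naproxen (7 mice), tryptophan (8 mice), naproxen+tryptophan (7 mice) and control (8 mice). Naproxen blocks both cyclooxygenases, the enzymes that start prostaglandin synthesis, celecoxib is selective for the inducible one, and tryptophan is an essential amino acid.

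Core histones H2A, H2B, H3 and H4 form the spool on which DNA is wound, and H1 histones bind where DNA enters and leaves it. Most histone genes are replication-dependent: they are transcribed while a cell copies its DNA, and their messages end in a short stem-loop in place of a poly(A) tail, which the stem-loop binding protein Slbp recognises. A few are replacement or terminal-differentiation genes with ordinary polyadenylated messages, of which H1f0 is the best known. Cells of the intestinal crypts divide throughout life, while adult heart muscle cells rarely do.

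Libraries held 26.3 M to 76.36 M estimated counts in hearts (59 libraries) and 10.11 M to 28.54 M in jejuna (38 libraries; 1 M is 1000000 counts). Heart libraries were made by poly-A selection and jejunum libraries by ribosomal RNA depletion, the jejunum RNA having integrity numbers below 8. Tissue and library chemistry therefore cannot be told apart for these genes. The tissue labels held: 7 heart muscle markers summed to 22870 to 54420 CPM (counts per 1000000 counts) in hearts and 13.7 to 76.3 CPM in jejuna, and 7 jejunal epithelium markers summed to 8819 to 33760 CPM in jejuna and 0.0310 to 1.47 CPM in hearts. CPM values were taken from the estimated counts after trimmed-mean scaling within an experiment. Jejuna naproxen 7 and naproxen+tryptophan 7, both of dissection batch 1, had the lowest summed histone level of their groups (966.6 and 1430 CPM). Counts of histone genes are given with and without them for naproxen against control, naproxen against celecoxib, naproxen+tryptophan against naproxen and the interaction. Sums by class, markers and other gene lists include them.

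Poly-A selection retains polyadenylated messages, whereas ribosomal RNA depletion does not depend on the tail, so the stem-loops of the genes named below are shown. A loop of 16 bases was found in the annotated transcript of 36 of the 63 genes (GENCODE vM21, build GRCm38) and was not found in that of the other 27. Across the 36 genes 6 spellings occurred, of which the commonest was shared by 21 genes. The loops are given 5′ to 3′ as DNA, with capitals marking the loop and lower case the bases beside it.
H1f2 (chr13:23739507-23739532, plus strand): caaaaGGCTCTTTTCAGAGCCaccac
H2bc6 (chr13:23585526-23585551, minus strand): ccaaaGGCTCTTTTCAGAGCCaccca
H2ac18 (chr3:96246027-96246052, plus strand): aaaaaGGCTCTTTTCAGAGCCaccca
H2ac19 (chr3:96239779-96239804, minus strand): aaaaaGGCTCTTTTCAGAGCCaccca
H2bc3 (chr13:23747198-23747223, plus strand): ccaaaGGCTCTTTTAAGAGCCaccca
H4c8 (chr13:23531453-23531478, plus strand): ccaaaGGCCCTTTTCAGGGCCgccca
H4c6 (chr13:23551286-23551311, minus strand): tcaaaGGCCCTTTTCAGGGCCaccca
H2ac18 and H2ac19 carried the same letters over the whole stretch shown. The transcripts differed in what follows the loop: 840 bases in H1f2 and 1861 bases in H2bc6, against 35 bases in H2ac18 and H2ac19, 23 in H2bc3, 46 in H4c8 and 33 in H4c6. No loop was found in the transcripts of H1f0 and H2bc21, which hold the poly(A) signal AATAAA within the last 50 bases. In H1f1 and H2bc4 neither feature was found.

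RefSeq promoter windows of 300 bases (build GRCm38.p6) matched 55 of the 63 genes. The motif CCAAT, searched on both strands, was in 46 of those 55 windows (83.6%), against 41.1% of 27025 windows of all genes. The motif TATAAA, also searched on both strands, was in 30 of the 55 windows (54.5%), against 15.7% of all windows. The 120 bases before the start are shown for H1f1 and H2bc3, which hold both motifs, and for H1f0, which holds neither; these 3 were chosen after the matches were seen, and capitals mark the motifs on either strand.
H1f1 (chr13:23763548-23763667, plus strand): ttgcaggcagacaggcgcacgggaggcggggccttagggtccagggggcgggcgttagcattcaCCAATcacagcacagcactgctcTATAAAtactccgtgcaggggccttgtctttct
H2bc3 (chr13:23746614-23746733, plus strand): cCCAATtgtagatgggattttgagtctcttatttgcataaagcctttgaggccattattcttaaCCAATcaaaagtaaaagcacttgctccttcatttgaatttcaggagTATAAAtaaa
H1f0 (chr15:79028092-79028211, plus strand): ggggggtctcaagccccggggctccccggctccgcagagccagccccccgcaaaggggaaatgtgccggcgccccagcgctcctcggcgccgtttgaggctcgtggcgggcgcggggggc
H1f1 held 1 copy of each motif in this stretch, H2bc3 held 2 of CCAAT and 1 of TATAAA, and H1f0 held neither. In the same 120 bases H4c8 and H4c6, which were among the highest in jejunum, also held neither, and H1f2, which was among the highest in heart, held 1 copy of CCAAT. These matches describe letters only.

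Histone messages filled far more of the jejunum libraries than of the heart libraries. The 63 genes together took 966.6 to 3219 CPM per jejunum (median 2293 CPM, 38 libraries) and 110 to 238 CPM per heart (median 149.5 CPM, 59 libraries). In control animals, 58 genes had a higher mean in the 8 jejuna than in the 26 hearts and 2 a lower one, and no test was made, because experiments were scaled separately. A mean of 1 CPM or more was reached by 54 genes in control jejuna and by 9 in control hearts. Of the 63 genes, 34 were listed at 0 in most hearts, and 8 had no count in any heart (H1f7, H2bc1, H2ac1, H2ac11, H2ac12, H2ac13, H3c13 and H3c14). H2ac1 had no count in any library of either tissue. In whole tissue, more cells making a message and more message per cell cannot be told apart.

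H1f0, H1f2 and H2bc4 supplied 78.5% to 90.3% of the histone counts of each heart and 15.8% to 45.6% of those of each jejunum. Per kilobase of exon, H1f0 averaged 77.3 ± 12.7 CPM in control jejuna (SD, 8 jejuna) and 33.3 ± 5.62 CPM in control hearts (SD, 26 hearts), where it was the highest of the 63 genes. The next in hearts were H1f2, a somatic linker histone, at 25.7 ± 6.63 CPM per kilobase, and H2bc4, an H2B gene, at 21.8 ± 10.7. These 3 were followed by H2ac19 at 6.4 ± 9.75 and H4c8 at 5.51 ± 6.22 CPM per kilobase, whose spreads exceeded their means. The 26 control hearts pool 3 experiments, and the order depended on the experiment. H1f0 was first in the controls of each, but H2ac19 and H4c8 took ranks 4 and 5 only in experiment 3 (20.6 and 14.4 CPM per kilobase). In experiments 1 and 2 rank 4 was taken by H2bc21, at 3.64 and 3.68 CPM per kilobase in control females and males of experiment 1 and 3.22 in controls of experiment 2. H2bc4 was at 37.1 CPM per kilobase in controls of experiment 3, above H1f2 (32.9), and at 14.2 to 16.1, below H1f2, in the other control groups. Over the pooled controls the means of H1f2 and H2bc4 differed by less than their spreads. In control jejuna the order was different: H4c8 led at 194.6 ± 52.5 CPM per kilobase (SD, 8 jejuna), then H2bc3 at 191.5 ± 37.0, H1f1 at 158.9 ± 21.5, H4c6 at 151.0 ± 32.5 and H2ac18 at 150.3 ± 34.5. Neighbours in that order differed by less than their spreads.

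**Figure D1:**
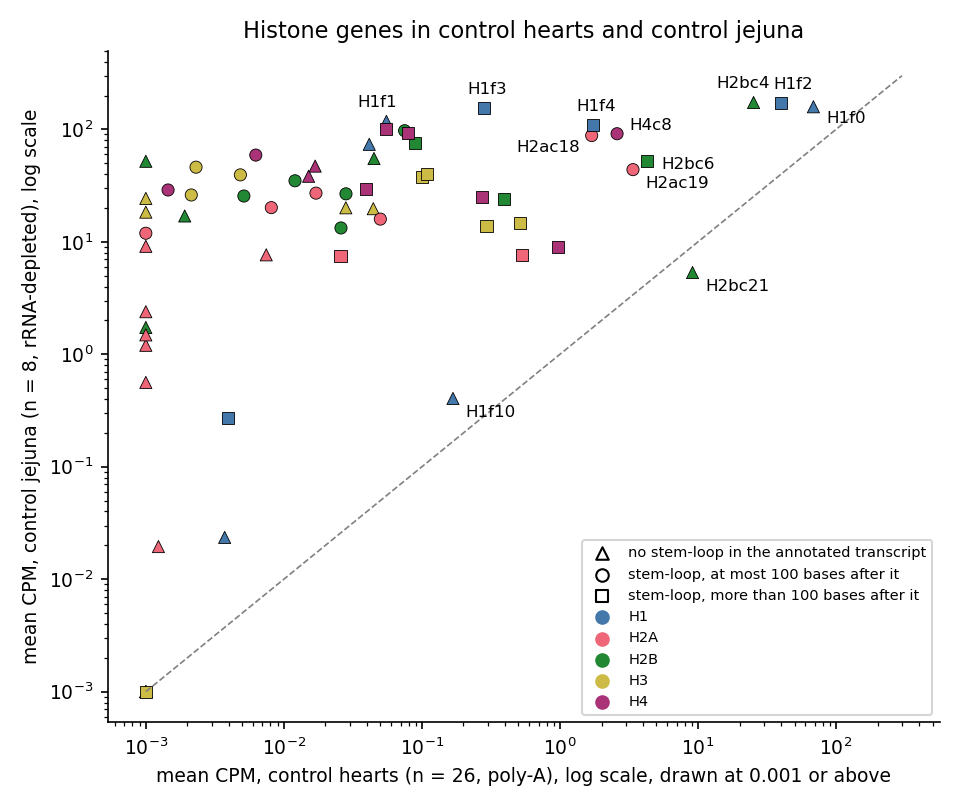
Mean level of each histone gene in 26 control hearts (horizontal) and 8 control jejuna (vertical), both in CPM on log axes and drawn at 0.001 CPM or above, with colour for the histone class and shape for the annotated end of the message. The dashed line marks equal levels; H2bc21 lies below it, and H1f0, H1f2 and H2bc4 stand furthest to the right.

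H2bc21 was the clear exception to the order of the tissues. This H2B gene averaged 5.33 ± 0.533 CPM in control jejuna (SD, n = 8) and 9.12 ± 0.784 CPM in control hearts (SD, n = 26). The other gene with a lower jejunal mean, H1f8, an oocyte linker histone, had 4 counts in all hearts together. At the other end, H1f1 averaged 118 ± 15.9 CPM in control jejuna against 0.0553 ± 0.0427 CPM in control hearts. H2bc3, an H2B gene, averaged 97.3 ± 18.8 CPM in control jejuna against 0.0749 ± 0.0490 CPM in control hearts. Genes were also grouped by the annotated end, in CPM that were not divided by length. Exon lengths differed between genes of these groups, such as 4446 bases in H2bc6 and 508 bases in H2bc3. The 19 genes with more than 100 bases after the loop had a median of 29.5 CPM in control jejuna and 0.271 CPM in control hearts. The 17 genes with a loop and at most 100 bases after it had medians of 28.9 CPM in jejuna and 0.0120 CPM in hearts. The 27 genes without an annotated loop had medians of 9.12 CPM in jejuna and 0.00191 CPM in hearts. H1f0, the highest gene of all in hearts, is among them. Some of these 27 annotated transcripts are short, such as 381 bases in H2bc13, H2bc15 and H2bc18 and 411 bases in H3c10 and H3c11. Where an annotation stops before the end of a message a loop would be missed, so this group may hold genes with a loop.

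The hearts of experiment 3 had higher group means than the other hearts in all 5 histone classes, with the widest margins for H2A and H4, although all hearts were prepared by poly-A selection. All 63 genes summed to 217.4 CPM in tryptophan and 221.5 CPM in control hearts of experiment 3, against group means of 123.5 to 166 CPM in experiments 1 and 2. H1 genes summed to 135.2 CPM (tryptophan) and 138.5 CPM (control) in experiment 3 and to means of 87.9 to 122.6 CPM in the other groups, and H2B genes to 55.5 and 57.3 CPM in experiment 3 and 28.4 to 36.2 CPM in the others. The polyadenylated H1f0 was among them, at 84.4 CPM in control hearts of experiment 3 and 58.8 to 62.9 CPM in the other control groups. Summed H2A genes stood at 16 ± 3.37 CPM in tryptophan hearts and 15.3 ± 1.95 CPM in control hearts of experiment 3 (SD, n = 8 each). The same sum was 2.80 CPM in naproxen, 3.27 CPM in naproxen+tryptophan and 2.32 CPM in control hearts of experiment 2, and between 0.692 and 0.789 CPM in the 4 groups of experiment 1. The near-copies H2ac18 and H2ac19 made up most of this sum in experiments 2 and 3, but not in experiment 1. Together they averaged 15.3 CPM in tryptophan and 14.6 CPM in control hearts of experiment 3. Their means were 2.25 CPM in naproxen, 2.78 CPM in naproxen+tryptophan and 1.83 CPM in control hearts of experiment 2, and 0.0202 to 0.0974 CPM in the groups of experiment 1. The split between them is uncertain: H2ac19 alone averaged 10.7 CPM in tryptophan and 10.9 CPM in control hearts of experiment 3, and was listed at 0 in every naproxen and every control heart of experiment 2, where H2ac18 was not. Summed H4 genes were 9.38 CPM in tryptophan and 9.09 CPM in control hearts of experiment 3, against 2.32 to 2.87 CPM in experiment 2 and 1.33 to 1.67 CPM in experiment 1. In the same hearts of experiment 3, the non-polyadenylated RNAs Rn7sk, Rmrp and Rpph1 summed to 33.4 CPM (tryptophan) and 48.5 CPM (control), against group means of 0.767 to 1.91 CPM in experiments 1 and 2, and their part in the difference was not tested. The comparisons below stay within experiments.

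Many of these genes are near-copies of each other, and the estimated counts reflect how reads were shared out. At least 50% of the 31-base words of 35 genes also occurred in another gene, and under 5% did for 11 genes, H1f0, H1f1 and H2bc21 among them. Of the histone values above 0, 83.4% were not whole numbers (tolerance 1e-06), against 59.7% of all values above 0 in the table. H2ac18 and H2ac19 are the case that matters most here: 89.6% of the words of H2ac18 are in H2ac19 and 100% of those of H2ac19 are in H2ac18. In control jejuna the coefficient of variation was 23% for H2ac18 and 104.7% for H2ac19, and 27.7% for their sum. H2ac19 was listed at 0 in 13 of 38 jejuna and 40 of 59 hearts. Values for either gene alone are therefore uncertain, and their sum is given beside each treatment comparison of H2ac18.

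Each treatment was tested against its own experiment with edgeR's quasi-likelihood test over all genes kept by a filter on low counts, and a gene was called at a Benjamini-Hochberg adjusted p below 0.05. The filter kept few histone genes in hearts (14 of the 63 in experiment 1, 16 in the second and 17 in the third cohort) and 56 in jejuna, where H1f6, H1f7, H1f8, H1f11-ps, H2ac1, H2ac14 and H3c14 were not tested. No histone gene was called in any of the 14 comparisons, so differences below are described by their size, their standard error (SE) and, as a weaker mark, an unadjusted p below 0.05. Counts of genes higher or lower are read from the same libraries, and many of the genes share reads. Such counts are therefore not independent observations.

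In the jejunum, fitted levels were lower with naproxen in all 5 classes, although no gene passed the adjusted threshold. The 63 genes summed to 1840 ± 464 CPM in naproxen jejuna (SD, n = 7; lowest 966.6, median 1970, highest 2309 CPM) and 2505 ± 414 CPM in control jejuna (SD, n = 8; lowest 1792, median 2456, highest 3027 CPM). The 2 ranges overlapped. Of 56 genes tested, 54 had a lower fitted level with naproxen (96.4%, against 46.7% of all genes tested), and the median log2 fold change was -0.55, against 0.02 for all genes. At an unadjusted p below 0.05 stood 32 of the 56, all lower, against 16% of all genes in either direction and 8.07% in the lower direction. None was called, against 0.0116% of all genes (2 of 17185). DESeq2 called 1 of them (0.547% of all genes), limma-voom none, and edgeR without the filter 33 of 62 (3.65% of all genes), of which 31 were lower. The 2 called higher were H2ac19, listed at 0 in 13 of 38 jejuna, and H3c14, listed at 0 in 35 of 38. Calls on such genes leave the unfiltered count uncertain.

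**Figure D2:**
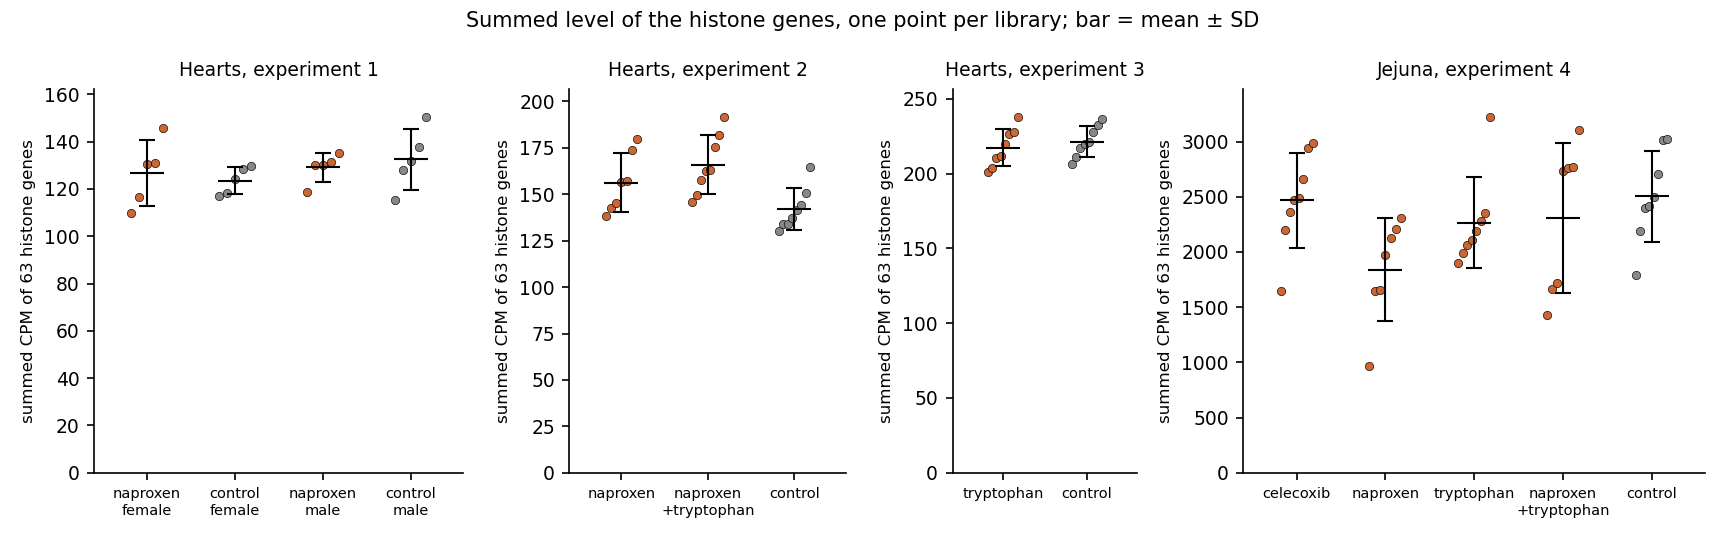
Summed level of the 63 histone genes in each library (points, CPM, linear axis from 0) by group, 1 panel per experiment, each with its own scale; bars are mean ± SD. Hearts lie between 110 and 238 CPM and jejuna between 966.6 and 3219 CPM; the lowest jejunum is naproxen 7.

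H2ac18, a core H2A gene, had the lowest p in this comparison. Its level in naproxen jejuna was 38.5, 48.9, 53.9, 48.6, 43.2, 34.8 and 13.1 CPM (animals 1 to 7), against a lowest of 50.8, a median of 88.4 and a highest of 115.8 CPM in 8 control jejuna. The groups met only where naproxen 3 lay above the lowest control. The log2 fold change was -1.18 (SE 0.24, edgeR adjusted p = 0.0898). Its near-copy H2ac19 ran the other way and was far less certain, at 30.6 to 71.1 CPM (median 58.6) in naproxen jejuna and 0 to 105.1 CPM (median 40.2) in control jejuna, with a log2 fold change of 0.93 (SE 1.41). The 2 genes together averaged 95.1 ± 24.8 CPM in naproxen jejuna (SD, n = 7) and 131.9 ± 36.5 CPM in control jejuna (SD, n = 8), a log2 ratio of means of -0.47, with overlapping groups.

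**Figure D3:**
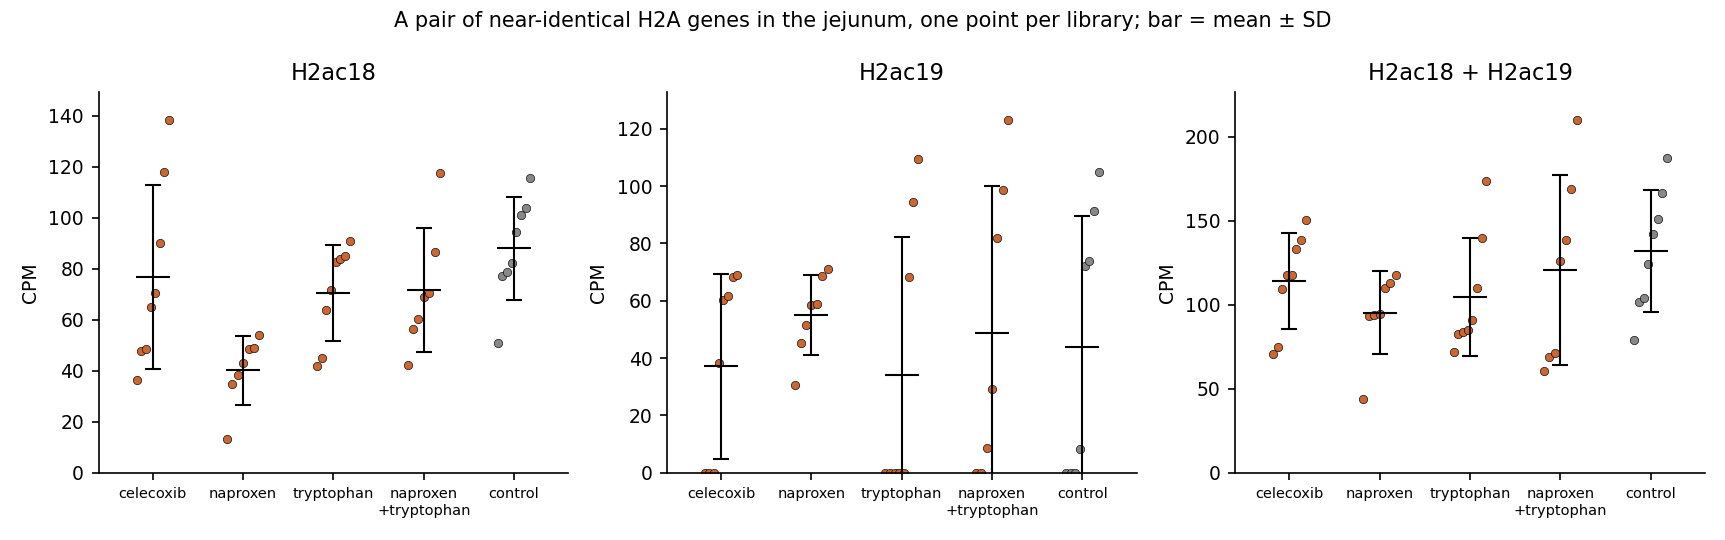
Levels of H2ac18, H2ac19 and their sum (CPM) in each jejunum by group, 1 point per library; bars are mean ± SD. H2ac19 is listed at 0 in 13 of 38 jejuna, while the sum has no library at 0.

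Among linker histones, 6 of 7 tested genes were lower with naproxen and 5 had an unadjusted p below 0.05. H1f1 was 17.3 to 100.2 CPM (median 70.1) in naproxen jejuna and 92.2 to 149.8 CPM (median 117.4) in control jejuna, with a log2 fold change of -0.76 (SE 0.24, edgeR adjusted p = 0.191). H1f0, the linker histone of resting and differentiated cells, differed less: it was 102.4 to 146.1 CPM (median 135.9) in naproxen jejuna and 126.1 to 207.1 CPM (median 162.2) in control jejuna, a log2 fold change of -0.27 (SE 0.093, edgeR adjusted p = 0.21). Both H1f1 and H1f0 had overlapping groups. For H1f2 the log2 fold change was -0.08 (SE 0.11).

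All 14 H2B genes were lower, 12 of them at an unadjusted p below 0.05, and their sum was 454.9 ± 138 CPM in naproxen and 654.1 ± 99.9 CPM in control jejuna. H2bc3 was 13.1 to 85.7 CPM (median 67.8) in naproxen jejuna and 73.4 to 129.3 CPM (median 95.3) in control jejuna, a log2 fold change of -0.70 (SE 0.26). All 11 H3 genes were lower, 6 at an unadjusted p below 0.05, with sums of 207.3 ± 73.5 CPM in naproxen and 300.5 ± 71.3 CPM in control jejuna. All 10 H4 genes were lower, 5 at an unadjusted p below 0.05, with sums of 382.5 ± 114 CPM in naproxen and 522.4 ± 118 CPM in control jejuna. H4c8 was 28.3 to 90.3 CPM (median 58.2) in naproxen jejuna and 55.9 to 132.5 CPM (median 91.1) in control jejuna, a log2 fold change of -0.59 (SE 0.22). H4c6 was 9.78 to 63.2 CPM (median 41.2) in naproxen jejuna and 40.5 to 75.9 CPM (median 55.8) in control jejuna, a log2 fold change of -0.58 (SE 0.25). For H2bc3, H4c8 and H4c6 the groups overlapped. Of 14 H2A genes, 13 were lower and 4 had an unadjusted p below 0.05, with sums of 174 ± 50.5 CPM in naproxen and 244.6 ± 72.4 CPM in control jejuna. The exceptions to the direction were H2ac19 and H1f10, a linker histone gene with a poly(A) signal. H1f10 averaged 0.688 ± 0.468 CPM in naproxen and 0.405 ± 0.413 CPM in control jejuna.

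**Figure D4:**
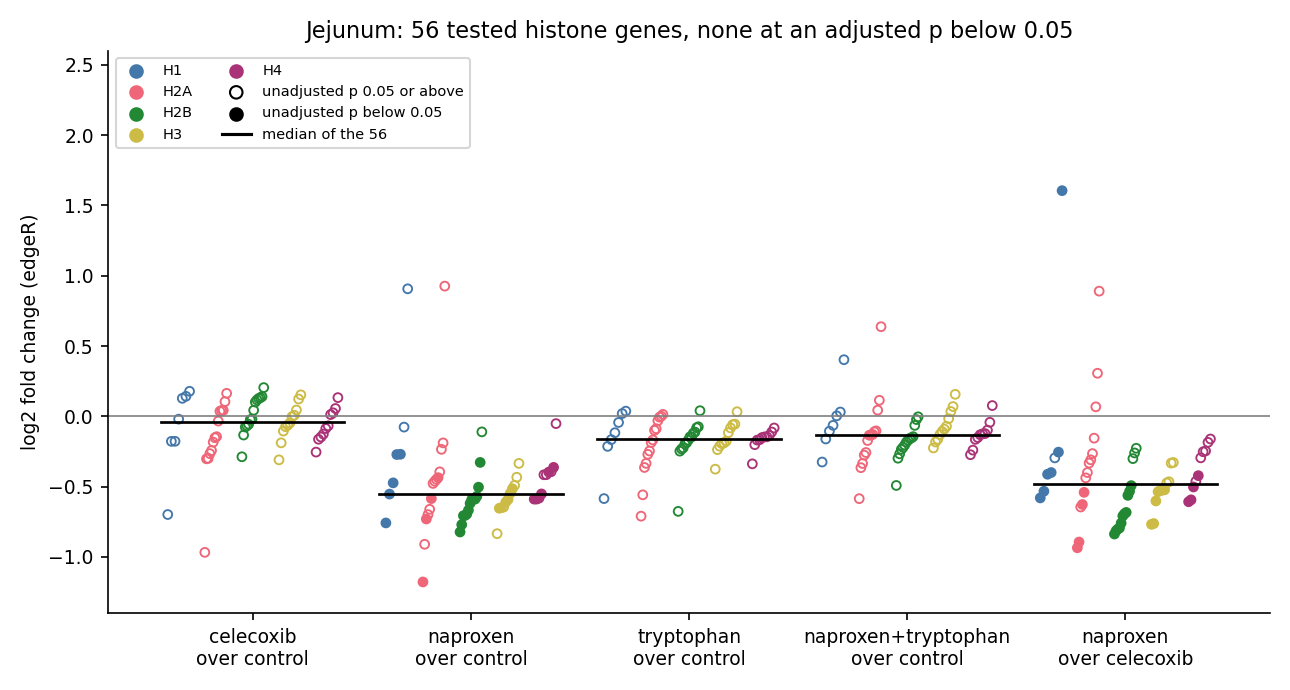
Log2 fold change of each of the 56 tested histone genes in 4 jejunum comparisons with control, with naproxen over celecoxib beside them, coloured by class, filled where the unadjusted p is below 0.05; lines mark medians. The naproxen median is -0.55 over control and -0.48 over celecoxib, and those of celecoxib (-0.04), tryptophan (-0.16) and naproxen+tryptophan (-0.13) over control lie closer to 0.

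A single jejunum weighed on this result. Naproxen 7 was the lowest of 38 jejuna for 48 of the 56 genes. With jejuna naproxen 7 and naproxen+tryptophan 7 left out, an alternative chosen after seeing the data, 52 of 56 genes were still lower with naproxen. Only 20 then had an unadjusted p below 0.05 (19 lower), and the median was -0.36. H2ac18 stood at -1.02 (SE 0.23, edgeR adjusted p = 0.199), and its sum with H2ac19 is not given for this refit. By dissection batch, the summed mean was 1468 CPM in naproxen and 2720 CPM in control jejuna in batch 1, 2257 CPM in naproxen and 2403 CPM in control jejuna in batch 2, and 1887 CPM in naproxen and 2295 CPM in control jejuna in batch 3. In batch 4 it was 1656 CPM in the 1 naproxen jejunum and 2602 CPM in control jejuna. The naproxen mean was the lower in all 4 batches, with 55, 38, 31 and 53 of 56 genes lower in batches 1 to 4. The medians were -1.45, -0.08, -0.08 and -0.72. High counts within a batch were not particular to naproxen. Against the same controls, celecoxib had 27, 10, 14 and 55 genes lower and tryptophan 54, 41, 35 and 35. Naproxen+tryptophan had 52, 8, 30 and 54 lower.

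Markers of other cells differed in the same jejuna. The 4 Paneth cell markers were all lower with naproxen, 3 at an unadjusted p below 0.05, and summed to 2330 to 11460 CPM in naproxen jejuna and 4955 to 16430 CPM in control jejuna. Of 5 crypt markers 3 were lower, with sums of 169.8 to 631.1 CPM in naproxen and 451.2 to 803.6 CPM in control jejuna. All 7 jejunal epithelium markers were lower (median -0.29). Naproxen 7 had the lowest Paneth sum of its group (2330 CPM, the others 5136 to 11460 CPM). It also had the lowest crypt sum (169.8 CPM, the others 486.3 to 631.1 CPM). The 4 tested B cell markers were all higher (median 1.03), none at an unadjusted p below 0.05, with overlapping sums of 4.08 to 65.5 CPM in naproxen and 2.48 to 106.4 CPM in control jejuna. Mitochondrially encoded transcripts reached 135400 CPM in naproxen 7 and 127200 CPM in naproxen 6, whose summed histone level was 1970 CPM. The highest value of all jejuna, 164900 CPM, was in naproxen+tryptophan 7, whose summed histone level was 1430 CPM. Mitochondrially encoded transcripts held 34050 to 83110 CPM in the other naproxen jejuna and 36320 to 85900 CPM in control jejuna. The part of these in the histone result was not tested.

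Genes of the cell cycle and of histone supply were set beside the 63. Of 23 S phase genes 21 were lower with naproxen, 5 at an unadjusted p below 0.05, with a median of -0.21, and Prim1, a primase subunit, had the lowest p (-0.47). Of 20 genes of G2 and mitosis 19 were lower, 2 at an unadjusted p below 0.05, with a median of -0.27 (Kif20a, a mitotic kinesin, -0.42). Of 14 genes that transcribe histone genes or process their 3′ ends 10 were lower, with a median of -0.05, and 1, Srrt, had an unadjusted p below 0.05 and was higher (0.26). Of 13 histone chaperones 7 were lower (median -0.01). Of 10 other histone genes 8 were lower (median -0.19, H2az2 -0.40). That list was drawn up for replacement and variant histones but also holds the H4 gene H4f16. Of the 8 tested genes with older Hist1h symbols 7 were lower (median -0.50). No gene of these lists was called. Jejunum naproxen 7 weighed on the cell cycle lists too, and their values are not given without it. Its S phase sum was 246.1 CPM, against 426.6 to 638.3 CPM in the other naproxen and 418.1 to 584.4 CPM in control jejuna. Its sum for G2 and mitosis was 229.5 CPM, against 441.2 to 757.1 CPM in the other naproxen and 461.3 to 707 CPM in control jejuna.

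Set against celecoxib, naproxen jejuna also had lower fitted levels of most histone genes, in a comparison that shares the naproxen jejuna with the one above. The sum was 1840 ± 464 CPM in naproxen and 2469 ± 429 CPM in celecoxib jejuna, 52 of 56 genes were lower (median -0.48, all genes 0.01), and 31 had an unadjusted p below 0.05 (18.7% of all genes), 30 of them lower (7.69% of all genes). None was called, against 0.0% of all genes, whereas DESeq2 called 5 (H1f0, H1f4, H2ac18, H2bc13 and H3c4; 1.69% of all genes), limma-voom none, and edgeR without the filter 34 (5.52%), 31 of them lower. For H2ac18 alone the log2 fold change was -0.94 (SE 0.24, edgeR adjusted p = 0.105), whereas H2ac18 and H2ac19 together averaged 95.1 CPM in naproxen and 114 CPM in celecoxib jejuna, a log2 ratio of means of -0.26. H1f0 was 102.4 to 146.1 CPM (median 135.9) in naproxen and 139 to 198.9 CPM (median 173.8) in celecoxib jejuna, a log2 fold change of -0.40 (SE 0.093, edgeR adjusted p = 0.0941). H1f4, a somatic linker histone, was 66.5 to 110.7 CPM (median 92.3) in naproxen and 101.4 to 139.5 CPM (median 121.5) in celecoxib jejuna, a log2 fold change of -0.41 (SE 0.099, edgeR adjusted p = 0.0941). In both genes the highest naproxen jejuna lay above the lowest celecoxib jejuna. H1f10 was the gene with an unadjusted p below 0.05 that was higher, at 0.688 ± 0.468 CPM in naproxen and 0.235 ± 0.101 CPM in celecoxib jejuna. Without jejuna naproxen 7 and naproxen+tryptophan 7, 50 of 56 were lower (median -0.32) and 21 had an unadjusted p below 0.05. All 4 dissection batches had a lower naproxen mean, with 55, 49, 51 and 36 of 56 genes lower. With all libraries kept, all 20 genes of G2 and mitosis were lower as well, 16 at an unadjusted p below 0.05 (median -0.44), and all 4 Paneth markers (median -1.13). The summed genes of G2 and mitosis held 229.5 (naproxen 7) to 757.1 CPM in naproxen, 562.1 to 913.7 CPM in celecoxib and 461.3 to 707 CPM in control jejuna.

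For celecoxib alone and tryptophan alone, set against the same control jejuna, no histone gene reached an unadjusted p below 0.05. With celecoxib the sum was 2469 ± 429 CPM, against 2505 ± 414 CPM in control jejuna, 33 of 56 genes were lower (median -0.04), none had an unadjusted p below 0.05 (4.37% of all genes) and none was called with edgeR, DESeq2 or limma-voom (edgeR, 0.0% of all genes). H1f2 was 153.2 to 222.4 CPM (median 188.5) with celecoxib and 139.8 to 192 CPM (median 172.4) in controls, a log2 fold change of 0.18 (SE 0.11). With tryptophan the sum was 2264 ± 413 CPM, with tryptophan 7 far above the rest at 3219 CPM. Of the 56 genes 50 were lower (89.3%, against 50.7% of all genes tested), with a median of -0.16. None had an unadjusted p below 0.05 (2.65% of all genes) or was called (0.0% of all genes, and no histone gene with DESeq2 or limma-voom). Leaving out 1 library at a time gave medians from -0.33 to -0.09 and 0 to 3 genes at an unadjusted p below 0.05. H2ac18 was 41.8 to 91.1 CPM (median 77.1) with tryptophan and 50.8 to 115.8 CPM (median 88.4) in controls, a log2 fold change of -0.33 (SE 0.23), and with H2ac19 added the log2 ratio of means was also -0.33 (104.7 CPM with tryptophan, 131.9 CPM in controls). H2bc1, a testis-expressed H2B gene, was 0.587 to 1.70 CPM (median 0.985) with tryptophan and 0.409 to 3.04 CPM (median 1.56) in controls, a log2 fold change of -0.68 (SE 0.36). Without the filter, edgeR called 2 genes for tryptophan, H2ac19 and H3c14 (0.782% of all genes).

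With both naproxen and tryptophan the histone level varied widely. The sum was 2312 ± 680 CPM in naproxen+tryptophan jejuna (SD, n = 7; lowest 1430, median 2736, highest 3108 CPM), the widest spread of the 5 jejunum groups. Against control, 46 of 56 genes were lower (median -0.13), none at an unadjusted p below 0.05 (5.98% of all genes) and none called (0.0%; 0 with DESeq2 and limma-voom; 2 without the filter, H2ac19 and H3c14, 1.47% of all genes). H2ac18 and H2ac19 together averaged 120.6 CPM with both agents and 131.9 CPM in controls, a log2 ratio of means of -0.13. H2bc4 was 114.2 to 180.5 CPM (median 136.5) with both agents and 123.2 to 197 CPM (median 177.2) in controls, a log2 fold change of -0.27 (SE 0.14). H4c3, an H4 gene, was 60.3 to 120.6 CPM (median 85.3) with both agents and 62.9 to 132.1 CPM (median 101.1) in controls, a log2 fold change of -0.24 (SE 0.17).

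Against naproxen alone, which is also the group of the first comparison, 54 of 56 genes were higher with both agents (median 0.43) and 7 had an unadjusted p below 0.05, all higher (3.66% of all genes in either direction, 1.52% higher). None was called (0.0% of all genes; 0 with DESeq2 and limma-voom), and edgeR without the filter called 16, all higher (1.03%). H2ac18 was 42.2 to 117.5 CPM (median 69.1) with both agents and 13.1 to 53.9 CPM (median 43.2) with naproxen alone, a log2 fold change of 0.84 (SE 0.25, edgeR adjusted p = 0.996). With H2ac19 added the means were 120.6 ± 56.7 CPM with both agents and 95.1 ± 24.8 CPM with naproxen alone, a log2 ratio of means of only 0.34. The interaction of naproxen with tryptophan, the change with naproxen under tryptophan less the change without it, was positive for all 56 genes (median 0.57), with 6 at an unadjusted p below 0.05 (3.4% of all genes) and none called (0.0%; 0 with DESeq2 and limma-voom; 14 without the filter, 13 of them higher, 0.986%). H2ac18 gave 1.18 (SE 0.34, edgeR adjusted p = 0.973), against 0.68 from the means of H2ac18 and H2ac19 together, and H3c1, an H3 gene, gave 0.81 (SE 0.34). H3c1 averaged 27.0 ± 11.0 CPM with both agents, 18 ± 6.39 CPM with naproxen, 22.1 ± 6.26 CPM with tryptophan and 26.1 ± 5.90 CPM in controls. Single jejuna decided these counts. The 7 genes became 2 without naproxen 7 or naproxen+tryptophan 6 and 28 without naproxen+tryptophan 7. The 6 of the interaction became 2 without naproxen 7, 1 without naproxen+tryptophan 6, 25 without naproxen+tryptophan 7 and 28 without tryptophan 7. Without both naproxen 7 and naproxen+tryptophan 7 each count was 19, with medians of 0.35 and 0.52.

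In hearts, few histone genes were measurable, and the clearest pattern came from naproxen with tryptophan in experiment 2. Of 16 tested genes 13 were higher than in control (median 0.29), and 6 had an unadjusted p below 0.05, all higher (17.2% of all genes in either direction, 10.4% higher). They were H1f0, H1f2, H2bc4, H1f4, H2bc6 and H3c15. None was called (0.255% of all genes were), limma-voom called none, and DESeq2 called H1f0 (adjusted p = 0.0307; 2.88% of all genes). H1f0 was 64.6 to 81.0 CPM (median 70.8) with both agents and 59.2 to 68.0 CPM (median 61.8) in controls, so the groups overlapped, with a log2 fold change of 0.18 (SE 0.053, edgeR adjusted p = 0.119). H1f2 was 40.1 to 57.9 CPM (median 48.5) with both agents and 32.5 to 51.2 CPM (median 39.8) in controls, a log2 fold change of 0.26 (SE 0.091). H2bc4 was 17.3 to 29.5 CPM (median 22.7) with both agents and 15.4 to 23 CPM (median 17.5) in controls, a log2 fold change of 0.33 (SE 0.12).

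**Figure D5:**
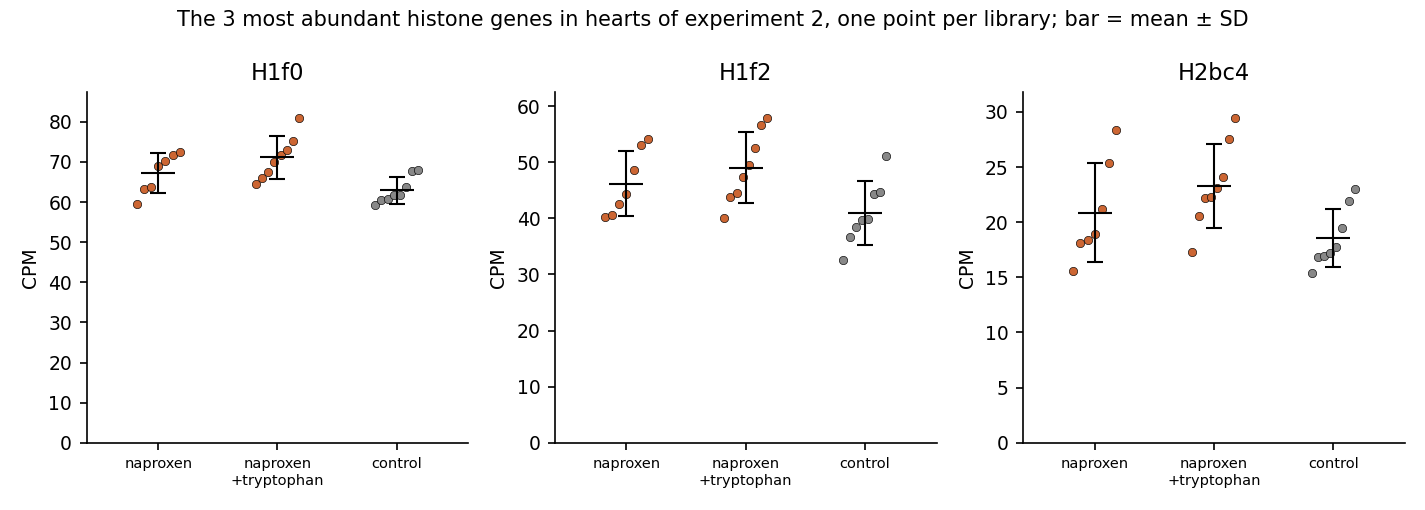
Levels of H1f0, H1f2 and H2bc4 (CPM) in each heart of experiment 2, 1 point per library, in naproxen, naproxen+tryptophan and control columns; bars are mean ± SD. For each gene the naproxen+tryptophan median is the highest and the control median the lowest, and the groups overlap.

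All 19 tested genes of G2 and mitosis were also higher in those hearts (median 0.41, 4 at an unadjusted p below 0.05). All 7 erythroid markers were higher, and their sum ran from 1848 to 14940 CPM with both agents and 1652 to 9290 CPM in controls. Neutrophil markers were higher for all 5 tested genes, with sums of 0.843 to 76.8 CPM with both agents and 2.17 to 9.93 CPM in controls, and their part in the histone values was not tested. With naproxen alone all 16 genes were higher than in the same control hearts (median 0.16), and 1 had an unadjusted p below 0.05 (3.63% of all genes; 0.0% called, and no histone gene with DESeq2 or limma-voom). That was H1f3, a linker histone, at 0.161 to 0.549 CPM (median 0.326) with naproxen and 0.0454 to 0.358 CPM (median 0.161) in controls, a log2 fold change of 0.79 (SE 0.31). H4c9, an H4 gene, came next, at 0.511 to 1.10 CPM (median 0.884) with naproxen and 0.406 to 0.784 CPM (median 0.686) in controls, a log2 fold change of 0.44 (SE 0.24). Against naproxen alone, adding tryptophan left 9 genes higher and 7 lower (median 0.08), with none at an unadjusted p below 0.05 (9.8% of all genes) and none called (0.0933%; 0 with DESeq2 and limma-voom). The lowest p was that of H4c14, an H4 gene, at 0.124 to 0.309 CPM (median 0.207) with both agents and 0.210 to 0.317 CPM (median 0.271) with naproxen, a log2 fold change of -0.36 (SE 0.20).

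Tryptophan alone in experiment 3 gave 6 higher and 11 lower of 17 tested genes (median -0.04), none called (0.0% of all genes; 0 with DESeq2 and limma-voom) and 1 at an unadjusted p below 0.05 (2.9% of all genes). That gene was H2bc21, at 6.96 to 9.39 CPM (median 8.05) in tryptophan hearts and 8.55 to 9.66 CPM (median 9.28) in control hearts, with overlapping groups and a log2 fold change of -0.19 (SE 0.053, edgeR adjusted p = 0.9996).

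In experiment 1, naproxen without injections gave mean summed histone levels within 1 SD of the controls in both sexes. The sum was 126.7 ± 14 CPM in naproxen females and 123.5 ± 5.81 CPM in control females, and 129.1 ± 6.21 CPM in naproxen males and 132.5 ± 12.8 CPM in control males (SD, n = 5 each). In females, 8 of 14 genes were lower (median -0.03), none called (0.0132% of all genes) and 1 at an unadjusted p below 0.05 (7.14% of all genes). That gene was H3c15, an H3 gene, at 0.284, 0.347, 0.416, 0.357 and 0.305 CPM in naproxen females and 0.592, 0.531, 0.340, 0.552 and 0.737 CPM in control females, a log2 fold change of -0.70 (SE 0.25, edgeR adjusted p = 0.611). The third control lay among the naproxen values. H2bc9, an H2B gene, averaged 0.274 ± 0.0870 CPM in naproxen and 0.419 ± 0.105 CPM in control females (log2 fold change -0.61, SE 0.35). In males, 9 of 14 genes were higher (median 0.04), none called (0.0%) and none at an unadjusted p below 0.05 (7.68% of all genes). H4c14 averaged 0.401 ± 0.285 CPM in naproxen and 0.180 ± 0.110 CPM in control males (log2 fold change 1.13, SE 0.55). The difference between the sexes in the response was tested as an interaction, which called none of 14 genes (0.0%) and gave 1 at an unadjusted p below 0.05 (5.05% of all genes). That gene was H2bc6, an H2B gene, with means of 5.46 CPM in naproxen and 4.46 CPM in control males and 4.6 CPM in naproxen and 5.76 CPM in control females, an interaction of 0.61 (SE 0.29, edgeR adjusted p = 0.759). DESeq2 and limma-voom called no histone gene in these 3 comparisons of experiment 1.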

How the data were processed

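RNA of 59 hearts and 38 jejuna was sequenced after poly-A selection or ribosomal RNA depletion, per the labels' protocols. The authors deposited 1 table of estimated counts per gene. Salmon 1.9.0, R 4.2.2 and the mouse build GRCm38 are named in the submitters' processing notes. The step that turned transcript estimates into gene values was not given in the sources used here. Estimated counts were rounded, genes kept with filterByExpr (minimum count 10), scaled with TMM within each experiment and tested with edgeR 4.0.16 (robust quasi-likelihood F test, R 4.3.3), with dissection batch as a term in experiments 3 and 4 and Benjamini-Hochberg adjustment over all genes tested, at 0.05. DESeq2 1.42.0 and limma 3.58.1 (voom) were alternatives, with other scaling, filtering, terms and left-out libraries. The tests were also tried on simulated data. The p-values set a difference against the spread between libraries within groups, estimated over all groups of an experiment.

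Levels are CPM, per kilobase of exon only where single genes are ranked within a tissue. Loops and near-copies (shared 31-base words) were searched in GENCODE vM21 transcripts, and motifs in RefSeq promoter windows of 300 bases. The genes and lists were chosen with earlier results of these data known. Named genes were those called, the 2 with the lowest p per comparison, the 5 highest per kilobase in control hearts and control jejuna, the extremes in share of non-whole values, and from each other list the 1 with the lowest p; others named were chosen after their values were seen. Replicate numbers were not taken as pairs, although pairing was not settled (34 of 73 same-numbered pairs in experiment 4 correlated above 0.1). Same-numbered libraries had median correlations of 0.07, 0.08, 0.19 and 0.09 in experiments 1 to 4. The medians of other pairs were 0.005, 0.02, -0.02 and -0.02. In that order, 0 of 20, 1 of 23, 5 of 16 and 9 of 38 libraries correlated best with their own number. No column of the table was left unused, and no 2 libraries held identical values.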

Additional observations from a re-analysis of the deposited data

Results flagged for a closer look

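Of 140 groups of 4 to 10 libraries examined gene by gene, 6 had a library far from the rest, where chance gives about 1 in 20. Jejunum naproxen 7 was low for H1f1, at 17.3 CPM against 68 to 100.2 CPM in the other naproxen jejuna, and for H4c3, at 45.8 CPM against 76.1 to 95.4 CPM. Jejunum tryptophan 7 was high for the summed histone level, at 3219 CPM against 1900 to 2353 CPM in the other tryptophan jejuna, and for H2bc3, at 133.1 CPM against 60 to 86.4 CPM. Jejunum control 1 was low for H2bc4, at 123.2 CPM against 165.3 to 197 CPM. Heart control 6 of experiment 2 was high for H1f4, at 2.09 CPM against 1.14 to 1.53 CPM. The cause was not tested in any of these.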

How the results depend on the processing

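The log2 fold changes of the 2 genes with the lowest p in each comparison kept their direction under every alternative run for them; those of the other named genes were not followed through the alternatives. With DESeq2 the number of histone genes called was 1 for naproxen+tryptophan against control in hearts, 1 for naproxen against control in jejunum (H2ac18) and 5 for naproxen against celecoxib, where edgeR called 0. Without the filter edgeR called 33 for naproxen and 2 each for tryptophan and naproxen+tryptophan against control. It called 16 for naproxen+tryptophan against naproxen, 34 for naproxen against celecoxib and 14 for the interaction, and the cause was not tested. H3c14, listed at 0 in 35 of 38 jejuna, was called in all of these except naproxen+tryptophan against naproxen. The unfiltered counts are therefore uncertain. With a replicate block, although the numbers were not taken as pairs, 1 gene was called for naproxen against control, and no other comparison had a call. It was H2ac18 (edgeR adjusted p = 0.0384, with 5 of 17185 genes called in all). With H2ac19 added and all libraries kept, the log2 ratio of means for naproxen against control was only -0.47. Calls of H2ac18 alone are therefore uncertain. For naproxen against control, 32 genes at an unadjusted p below 0.05 became 17 with only the groups compared in the fit and 20 without jejuna naproxen 7 and naproxen+tryptophan 7. Leaving out 1 library at a time gave 0 to 1 called for naproxen against control (1 without control 1) and 0 to 5 for naproxen against celecoxib (5 without naproxen 6), and 0 elsewhere. The 32 then ranged from 16 to 37 (16 without naproxen 7, 19 without control 7, 20 without naproxen 5, 21 without control 5), the 31 against celecoxib from 17 (without naproxen 7) to 34, and the median for naproxen against control from -0.65 to -0.38. The medians nearest 0 changed sign: -0.14 to 0.05 for celecoxib in jejunum, and in hearts -0.14 to 0.03 for naproxen in females and -0.03 to 0.12 in males. Adding up the counts of a class turned the sign of some small class differences for celecoxib and in experiments 1 and 3, and of none for naproxen in jejunum. Low heart counts limit what could be tested there.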
